A study of Homo sapiens with 8 samples.

Results

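Keratins are the intermediate filament proteins of epithelial cells, and the genes described here are those that liver epithelium is known for, together with a few keratins of other epithelia. Rows were matched by symbol, and no cut on a measured value entered the rule. Of the 8 names given (KRT7, KRT8, KRT10, KRT18, KRT19, KRT23, KRT80 and KRT81), 7 matched a row among 25603 genes, and these 7 all passed the filter on low levels that left 20153 genes to be tested. KRT23 was not analysed here. RNA was sequenced from the established hepatocarcinoma line HepG2, kept for 4 days either in vehicle (0.2% DMSO) or with a mix of UNC1999 and valemetostat tosylate at 1 µM each (EZHi). Both compounds inhibit EZH1 and EZH2, which methylate lysine 27 of histone H3 as part of a polycomb repressive complex. Each group had 4 libraries, numbered 1 to 4 in both groups. HepG2 is a single tumour line, and the 2 inhibitors were given together, so their effects cannot be told apart.

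A keratin filament is built from pairs of an acidic type I chain and a basic type II chain, and a cell needs both types to assemble a network. Adult hepatocytes are known for one such pair, KRT8 (type II) and KRT18 (type I). Bile duct cells (cholangiocytes) keep that pair and add KRT7 (type II) and KRT19 (type I), which is why pathologists use KRT7 and KRT19 to mark the biliary lineage. KRT10 (type I) belongs to differentiated epidermis, KRT80 (type II) is found in many epithelia, and KRT81 (type II) is a hair keratin.

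Levels are the deposited log2 values, which are corrected for transcript length, and, where a linear scale is easier to read, estimated FPKM (fragments scaled to transcript length and to library total). The deposited scale keeps no read numbers, so the depth behind a value is unknown. In vehicle, KRT8 had the highest level, at an estimated FPKM of 1284.7 ± 275.7 (SD, n = 4). KRT19 followed with 396.1 ± 129.3 and KRT18 with 393.1 ± 71.7, which differed by less than their spread. KRT10 lay far lower at 8.84 ± 0.501, and KRT80 was at 1.49 ± 0.833. KRT7, the type II biliary keratin, was at 0.747 ± 0.0289, and KRT81 at 0.147, close to the filter of 0.1. HepG2 cells thus held KRT19 at a level like that of KRT18 but little KRT7. The order of KRT18 and KRT19 rests on the length used: with the length of the canonical transcript in place of the mean over transcripts, KRT18 was at 348.2 and KRT19 at 212.1, while differences between the groups within a gene do not depend on it.

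**Figure D1:**
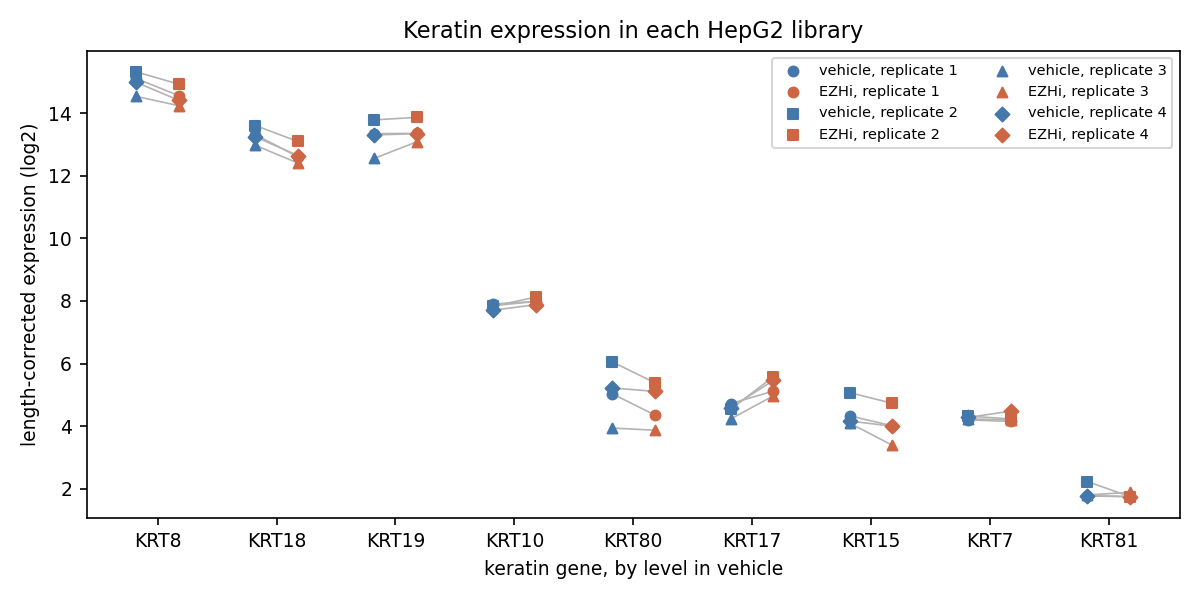
Deposited log2 value (length-corrected, vertical axis) of each tested keratin in every library, vehicle (blue) beside EZHi (orange), with marker shapes for replicate numbers and grey lines between libraries of the same number. KRT8, KRT18 and KRT19 sit above 12 in every library, KRT10 near 8, and the other keratins below 6.5, and the groups separate only for KRT17.

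The question put to these genes was whether inhibition of EZH1/2 moved the hepatocyte pair against the biliary and other keratins. KRT18 was called lower, at 66.1% of its vehicle level. Without pairing of replicates, this call was lost in 6 of the 8 fits that left out 1 library. KRT8 stood at 73.2% with a call that depends on how replicates are treated. KRT19, KRT7, KRT10, KRT80 and KRT81 were not called. Of the 7 genes, 1 was called lower and 0 higher by limma at an adjusted p under 0.05, against 4.27% of all tested genes called lower and 8.85% called higher. Centring on the more abundant genes shifted the balance of calls over all genes, from 67.5% to 88.5% of them higher. Libraries with the same number deviated together in both groups, so a second fit took the number as a block. It called 2 of the 7 lower (KRT8 and KRT18) and 0 higher, beside 15.1% of all genes called lower and 14.9% higher. The median log2 change of the 7 was -0.11, with 3 positive and 4 negative, beside -0.008 over all genes tested. None of the 7 had groups that did not overlap (0 of 7), which 18.6% of all genes had.

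KRT18, the type I keratin of hepatocytes (ENSG00000111057, hg38 chromosome 12, 52948871 to 52952906, plus strand), had log2 values of 13.31, 13.60, 12.97 and 13.24 in vehicle libraries 1 to 4 and 12.60, 13.09, 12.40 and 12.64 in EZHi. Every EZHi library lay under the vehicle library of its number, while EZHi library 2 lay above vehicle library 3, so the groups overlapped. The fall was 0.60 on the log2 scale, written as a change of -0.60 (SE 0.16, 95% interval -0.96 to -0.23, limma adjusted p = 0.039). With the number as a block the SE was 0.05 and the adjusted p 3.8e-05 (limma). On the linear scale KRT18 went from an estimated FPKM of 393.1 ± 71.7 to 260.7 ± 55.5 (SD, n = 4 each). The call without the block is narrow: it was lost in 6 of the 8 fits that left out 1 library, where the limma adjusted p reached 0.102, and kept without vehicle library 3 or EZHi library 2. It was also lost with no filter (limma adjusted p = 0.055), no trend in the variance (0.0501), quantile normalization (0.0729) or centring on the more abundant genes (0.0577). In the blocked fits that left out a whole pair, the change was between -0.62 and -0.56, and the largest adjusted p was 0.000936 (limma).

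KRT8, the type II partner of KRT18 (ENSG00000170421, chromosome 12, 52897187 to 52949954, minus strand), had log2 values of 15.10, 15.31, 14.53 and 14.98 in vehicle and 14.55, 14.92, 14.23 and 14.40 in EZHi. All 4 same-numbered differences were negative, between -0.58 and -0.30, and the groups overlapped. The change was -0.45 (SE 0.18, 95% interval -0.86 to -0.04) and was not called, with a limma adjusted p of 0.151. It was called with the block, where the interval was -0.59 to -0.31 and the limma adjusted p 0.000742, and also without the block once vehicle library 3, the lowest vehicle library, was left out (-0.60, limma adjusted p = 0.0399). Estimated FPKM was 1284.7 ± 275.7 in vehicle and 937.7 ± 198.4 in EZHi.

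KRT8 and KRT18 are neighbours on opposite strands, and the annotation gives them 525 shared exon bases, which are 7.63% of the exon bases of KRT8 and 17.1% of those of KRT18. The authors counted reads in union mode without regard to strand, so a read over exons of both genes counts for neither. The effect of leaving these reads out was not tested. Within each library, KRT8 exceeded KRT18 by 1.79, 1.70, 1.56 and 1.74 log2 units in vehicle and by 1.95, 1.83, 1.83 and 1.77 in EZHi. The difference of the means was 0.15, with EZHi higher in 4 of 4 same-numbered pairs and groups that overlapped, so the balance within the hepatocyte pair moved far less than the level of either gene.

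KRT19, the type I biliary keratin (ENSG00000171345, chromosome 17, 41523617 to 41528308, minus strand), had log2 values of 13.34, 13.78, 12.55 and 13.30 in vehicle and 13.35, 13.86, 13.08 and 13.34 in EZHi. Libraries 1, 2 and 4 differed from their partners by 0.01, 0.08 and 0.04, and library 3 by 0.53. The change of 0.16 (SE 0.25, 95% interval -0.39 to 0.71, limma adjusted p = 0.738) was not called. The block left it uncalled (interval -0.03 to 0.35, limma adjusted p = 0.182), and without vehicle library 3 its sign turned, to -0.067. With the block and another scaling it was called higher, at 0.25 with quantile normalization and 0.26 with centring on the more abundant genes (limma adjusted p = 0.0286 and 0.0334).

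KRT7, the type II biliary keratin (ENSG00000135480, chromosome 12, 52232520 to 52252186, plus strand), was at 4.20, 4.32, 4.23 and 4.28 in vehicle and 4.15, 4.23, 4.20 and 4.48 in EZHi. The change was 0.01 (SE 0.10, limma adjusted p = 0.972), and its 95% interval of -0.22 to 0.24 leaves out a change of the size measured for KRT18. Its sign depended on the scaling: quantile normalization gave -0.20. The deposited scale shrinks differences of genes with few reads, which at the level of KRT7 can understate a change. The annotation places 7.85% of the exon bases of KRT7 under exons of KRT7-AS and KRT87P on the other strand.

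**Figure D2:**
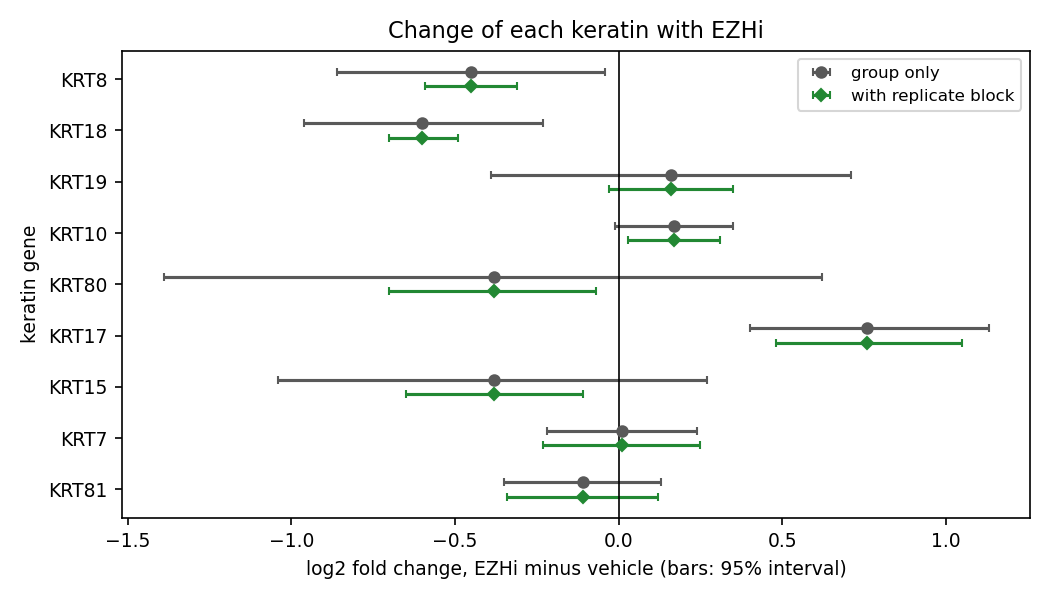
Log2 change from vehicle to EZHi of each tested keratin (point) with its 95% interval (bar), from the fit with group only (grey) and from the fit with the replicate number as a block (green). The intervals of KRT8 and KRT18 lie below 0 in both fits, those of KRT17 above it, and those of KRT19 and KRT7 cross it in both. The intervals are not adjusted for the number of genes tested.

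The remaining genes chosen were not called either. KRT10 (ENSG00000186395, chromosome 17, 40818117 to 40822614, minus strand) had log2 values of 7.90, 7.83, 7.85 and 7.70 in vehicle and 7.98, 8.12, 7.98 and 7.88 in EZHi, each EZHi value above its partner. Its change was 0.17 (SE 0.08, limma adjusted p = 0.22, and 0.0736 with the block), and centring on the more abundant genes brought a call (0.26, limma adjusted p = 0.0488). Its antisense neighbour KRT10-AS1, which shares 61 exon bases with it, had a difference of -0.03 (limma adjusted p = 0.889). KRT80 (ENSG00000167767, chromosome 12, 52168996 to 52192014, minus strand) spread most, from 3.94 to 6.06 in vehicle and from 3.87 to 5.39 in EZHi. Its change of -0.38 (SE 0.45, limma adjusted p = 0.652, and 0.0662 with the block) was negative in 4 of 4 same-numbered pairs. Leaving out 1 library moved it between -0.76 and -0.052, and the block with quantile normalization called it (-0.59, limma adjusted p = 0.00735). KRT81 (ENSG00000205426, chromosome 12, 52285913 to 52291534, minus strand) lay between 1.75 and 2.23 in all libraries, with a change of -0.11 (limma adjusted p = 0.569).

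Comparing keratins inside a library removes any scaling that acts on all genes of it alike. KRT19 minus KRT18 was 0.04, 0.18, -0.41 and 0.06 log2 units in vehicle and 0.75, 0.77, 0.68 and 0.70 in EZHi. The EZHi values were thus close together and all above the vehicle values, with a difference of 0.76 between the means of -0.04 ± 0.26 and 0.73 ± 0.04 (SD, n = 4). Leaving out any 1 library kept it between 0.63 and 0.83, and quantile normalization gave 0.77. KRT19 minus KRT8 likewise went from -1.73 ± 0.19 to -1.12 ± 0.07 with no overlap. The mean of the biliary keratins KRT7 and KRT19 minus the mean of KRT8 and KRT18 went from -5.38 ± 0.05 to -4.77 ± 0.15, also with no overlap. KRT7 minus KRT19, the balance within the biliary pair, was -8.99 ± 0.48 in vehicle and -9.14 ± 0.36 in EZHi, and its groups overlapped. These differences between genes are descriptions and carry no test. KRT19 deviated from its group means together with KRT18 (r = 0.95) and KRT8 (r = 0.98), and a difference removes such shared spread. Groups thus separate more easily here than for single genes, and the share of gene pairs that do so was not tested. The differences came with a lower level of KRT18 and KRT8, while neither biliary keratin was called higher on the deposited scale.

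Summed by filament type, KRT19 made up 49.9%, 52.6%, 42.1% and 50.4% of the type I level (KRT18, KRT19, KRT10, KRT17 and KRT15) in vehicle and 61.6%, 62.1%, 60.3% and 60.8% in EZHi. KRT18 made up 49.9% ± 4.24 in vehicle and 37.0% ± 0.607 in EZHi (SD, n = 4). Which of them led depends on the length used: with canonical transcript lengths the share of KRT19 was lower, 36.5% ± 4.19 in vehicle and 48.8% ± 0.855 in EZHi, and the groups were still apart. KRT8 was 99.8% of the type II level in both groups. The ratio of type II to type I was 1.69, 1.51, 1.66 and 1.62 in vehicle and 1.42, 1.30, 1.34 and 1.28 in EZHi, without overlap. These shares and this ratio rest almost wholly on KRT8, KRT18 and KRT19, as do the differences between those genes. They restate the same values and are not separate results. The summed level of all tested keratins was 2086.8 ± 475.6 estimated FPKM in vehicle and 1645.4 ± 356.9 in EZHi, and these sums overlapped, although EZHi was lower in 4 of 4 same-numbered pairs. In bulk RNA, fewer cells of a type and less RNA per cell cannot be told apart.

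**Figure D3:**
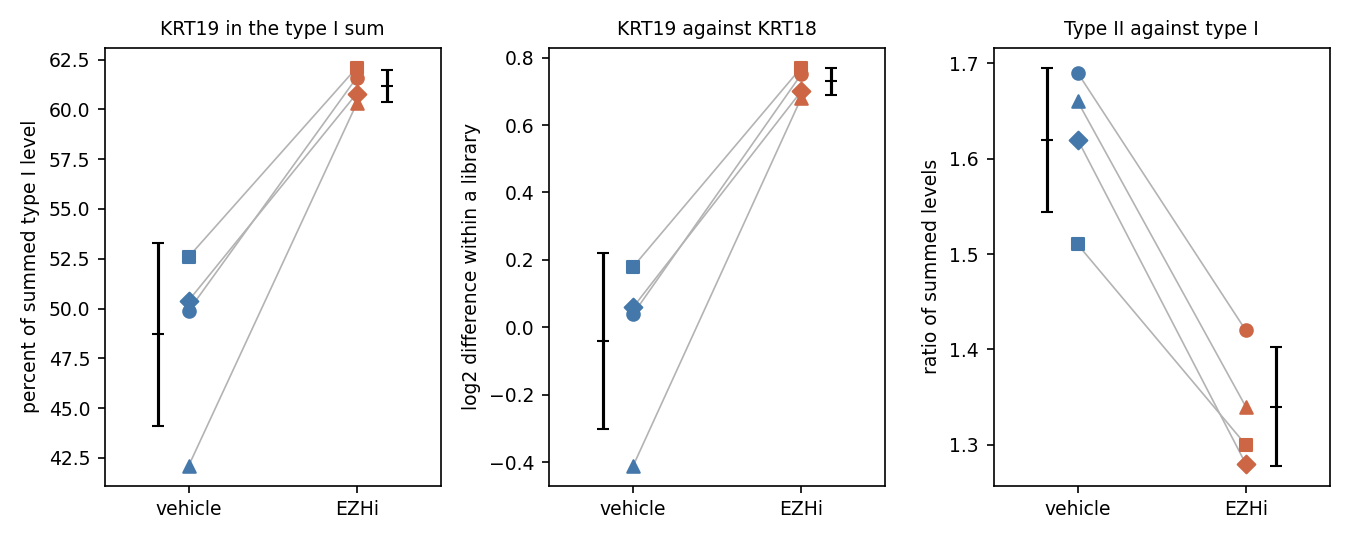
Make-up of the keratin level in each library: the percent of the summed type I level held by KRT19, the log2 difference of KRT19 and KRT18, and the ratio of the type II to the type I sum, with grey lines between libraries of the same number, bars for the mean and SD, and vertical axes that do not start at 0. The share of KRT19 lies between 60.3% and 62.1% in EZHi and between 42.1% and 52.6% in vehicle.

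The keratins did not vary independently. In KRT8, KRT18, KRT19 and KRT80, library 2 was the highest and library 3 the lowest of its group, in vehicle and in EZHi alike. This order was not particular to keratins: SFN and KLF5, named below, had it in both groups. In ALB, a hepatocyte marker, library 2 was the lowest and library 3 the highest in both. Correlations with genes outside the keratins were not set beside those that follow. Deviations from the group means correlated at r = 0.96 between KRT8 and KRT18, 0.98 between KRT8 and KRT19 and 0.93 between KRT19 and KRT80, over 8 libraries that share their scaling and their numbers. The other keratins chosen followed these less closely: r was 0.03 between KRT7 and KRT8, 0.18 between KRT7 and KRT19 and 0.50 between KRT7 and KRT80, 0.24 between KRT10 and KRT19, and 0.31 between KRT81 and KRT8. Of the spread in KRT18 over the 8 libraries, the group took 60.9% and the replicate number 38.3%. For KRT19 the group took 4.63% and the number 87.5%, and for KRT8 41.0% and 56.4%. What the number stands for is not given by the labels.

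The annotation holds 55 keratin genes in the clusters of chromosomes 12 and 17. Of these, 13 had a row and 9 were tested, both counts with the keratins chosen included. Beyond those chosen, KRT17 and KRT15 were tested. KRT17, a type I keratin of basal and injured epithelia (ENSG00000128422, chromosome 17, 41619442 to 41624842, minus strand), rose. Its log2 values were 4.72, 4.54, 4.23 and 4.59 in vehicle and 5.12, 5.58, 4.97 and 5.46 in EZHi, with no overlap. The change was 0.76 (SE 0.16, 95% interval 0.40 to 1.13, limma adjusted p = 0.0125, and 0.00194 with the block), from an estimated FPKM of 0.902 to 1.54, so the level stayed low. Quantile normalization lowered the change to 0.56 and ended the call (limma adjusted p = 0.0575). An unnamed gene on the other strand covers 10.2% of its exon bases. KRT15, a type I keratin of basal epithelial cells, had a change of -0.38 (limma adjusted p = 0.461) that was called with the block (0.0389). The blocked call was lost without pair 1, 2 or 3 (limma adjusted p = 0.0984, 0.0929 and 0.138) and with centring (0.105). KRT79, KRT16, KRT6A and KRT74 were under the filter, at estimated FPKM of 0.0695, 0.0532, 0.0253 and 0.0147 in vehicle.

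Promoter sequence was at hand for KRT8 and KRT10, from the RefSeq table (GRCh38.p14), which had no entry for KRT7, KRT18, KRT19, KRT23, KRT80 or KRT81. The 250 bases before the RefSeq start are shown, because KRT8 is the member with an entry that was called in the blocked fit and KRT10 one that was called in neither, with capitals for a TATA box (TATAAA). KRT8 lies at chr12:52926470-52926719 and KRT10 at chr17:40822615-40822864, both read on the minus strand:
KRT8: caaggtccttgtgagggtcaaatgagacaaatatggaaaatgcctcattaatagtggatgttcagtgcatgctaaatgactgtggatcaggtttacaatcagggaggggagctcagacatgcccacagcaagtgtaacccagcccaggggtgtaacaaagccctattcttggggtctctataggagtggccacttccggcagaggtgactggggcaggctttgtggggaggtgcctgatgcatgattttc
KRT10: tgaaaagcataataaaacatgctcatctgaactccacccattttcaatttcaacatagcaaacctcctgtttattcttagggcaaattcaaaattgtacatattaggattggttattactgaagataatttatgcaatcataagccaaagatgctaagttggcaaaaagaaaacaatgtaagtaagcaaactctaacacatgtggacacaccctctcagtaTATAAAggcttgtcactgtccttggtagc
Of the 18 annotated KRT8 transcripts, 1 starts within 50 bases of that RefSeq start, so the KRT8 window is not the promoter of most of them, while 2 of the 2 KRT10 transcripts start there. The GC content was 50.4% for KRT8 and 34.8% for KRT10, against a median of 58.0% over 35116 promoters, and the windows held 1 and 0 CpG against a median of 11. On either strand, TATAAA was in 10.7% of all promoters, the grainyhead-like letters AACNGGTT in 1.49%, the AP-1 letters TGANTCA in 6.57% and the SP/KLF letters GGGCGG in 42.6%. The last 3 did not occur in either window.

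Keratin filaments are anchored at desmosomes and hemidesmosomes through plakins, and 16 of the 19 genes listed for these were tested. Without the block 3 rose and 1 fell, where 8.85% of all genes rose and 4.27% fell. With it 3 rose and 4 fell, where 14.9% of all genes rose and 15.1% fell, and the median change was -0.03 (-0.008 over all genes). PKP2, a desmosomal plaque protein, fell by 0.57, from a log2 value of 9.75 ± 0.23 to 9.19 ± 0.12 (SD, n = 4, limma adjusted p = 0.0093). EVPL, the plakin envoplakin, rose by 0.32 (limma adjusted p = 0.0249), a call lost in 4 of the 8 fits that left out 1 library (vehicle library 1 or 2, EZHi library 2 or 3). DSC3, a desmosomal cadherin, and COL17A1, a hemidesmosomal collagen, rose by 1.22 and 0.81 (limma adjusted p = 0.00335 and 0.00367), but from estimated FPKM of only 0.103 and 0.121. DSP, the plakin that ties keratin to the desmosome, was at 13.32 ± 0.22 and 13.14 ± 0.24 and was not called (limma adjusted p = 0.478).

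Of the genes whose products bind, crosslink, chaperone or degrade keratins, 14 were tested, and 1 was called lower and 0 higher without the block, beside 4.27% and 8.85% of all genes. The sign was negative for 11 of the 14, with a median of -0.18, and for 10481 of the 20153 genes tested. The gene called was TGM2, the transglutaminase that crosslinks keratin in Mallory-Denk bodies, which fell by 0.57 (SE 0.15, limma adjusted p = 0.0359) from 11.01 ± 0.30 to 10.43 ± 0.21. This call was lost with no filter, quantile normalization or centring and in 6 of the 8 fits that left out 1 library, being kept without vehicle library 3 or EZHi library 2, and it held in all 4 blocked fits that left out a pair. With the block 7 were lower and 0 higher (15.1% and 14.9% of all genes), and 3 were called without pair 3. Among the 7 was SFN, the 14-3-3 sigma protein that binds keratin, with a change of -0.38 (limma adjusted p = 0.402 without the block, 0.00399 with it). Of 10 other intermediate filament genes tested, 1 rose without the block, the astrocyte filament GFAP, by 1.20 (limma adjusted p = 0.000255) from an estimated FPKM of 0.294 to 0.666, where 8.85% of all genes rose. With the block 2 were higher and 1, the nuclear lamin LMNA, lower, beside 14.9% and 15.1% of all genes. VIM was not analysed here.

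Of the 8 tested transcription factors of epithelia, 2 rose and 0 fell without the block (8.85% and 4.27% of all genes), and 3 rose and 3 fell with it (14.9% and 15.1%). OVOL1 rose by 0.88 (limma adjusted p = 0.00156) and KLF4 by 0.69 (limma adjusted p = 0.00633), both from low levels, at estimated FPKM of 0.135 and 0.293 in vehicle. Called lower with the block alone were GRHL1, ELF3 and KLF5, with changes of -0.28, -0.29 and -0.50. SOX4 was called higher with the block alone, with a change of 0.42 (limma adjusted p = 0.169 without the block, 0.00259 with it). Its estimated FPKM was 6.9 in vehicle and 9.12 in EZHi. GRHL2, the factor named in the title of the study, was not analysed here.

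**Figure D4:**
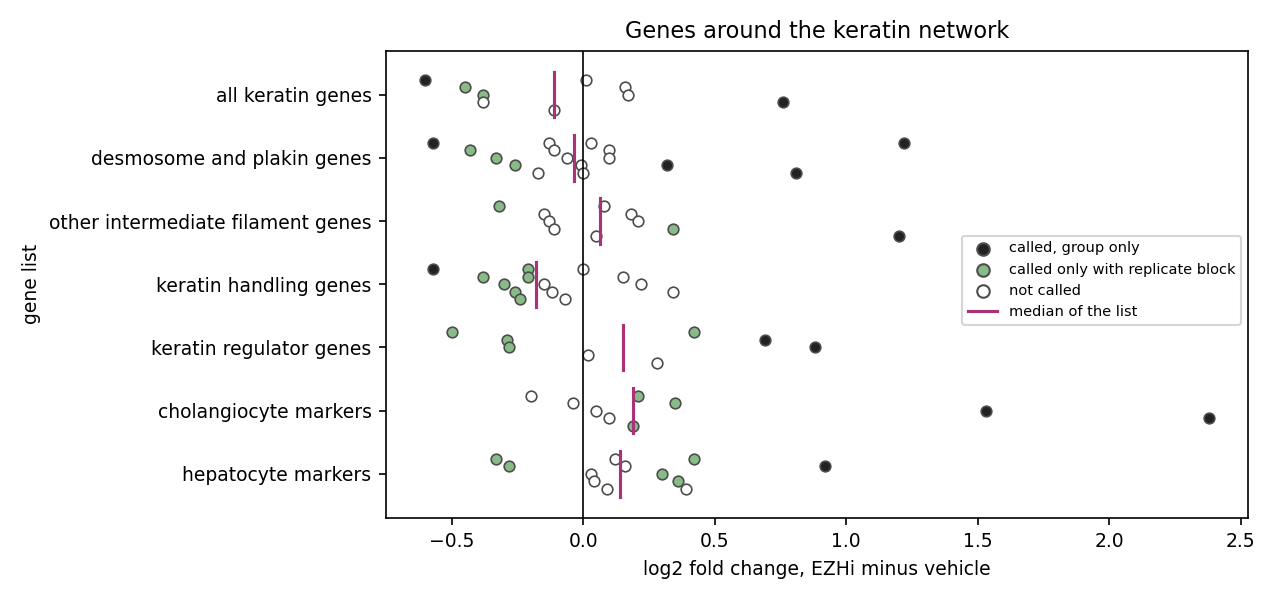
Log2 change from vehicle to EZHi of every tested gene in the lists of genes around the keratins, with genes called by the fit with group only in black, those called only with the replicate block in green, the rest open, and a line at each list's median. CD24 at 2.38 and PROM1 at 1.53 lie highest, and the genes that handle keratins lie mostly below 0.

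Markers of both liver epithelia were measured in the same libraries. The labelled hepatocyte-type line held ALB (serum albumin) at an estimated FPKM of 11210.9 in vehicle and 9001.5 in EZHi, and APOA1 at 1216.1 and 1612.9. ALB had a change of -0.28 that was called only with the block (limma adjusted p = 0.638 without and 0.0314 with it). Of the 12 hepatocyte markers, all tested, 10 were positive and 2 negative, with a median of 0.14. Without the block 1 was called (8.85% of all genes were higher), FGB, a fibrinogen chain, which rose by 0.92 (limma adjusted p = 0.00167). With the block 4 were higher and 2 lower, beside 14.9% and 15.1% of all genes. Their summed level ran from 24463.7 to 47950.6 in vehicle and from 27035.6 to 44172.8 in EZHi. This sum includes AFP, which the paper treats as a progenitor gene. AFP was at an estimated FPKM of 16089.0 in vehicle and 16309.0 in EZHi, above ALB in both. Of 9 cholangiocyte markers tested beside the keratins, 2 rose and 0 fell without the block (8.85% and 4.27% of all genes), and 5 rose and 0 fell with it (14.9% and 15.1%). Of the 9, 7 were positive, with a median of 0.19, close to that of the hepatocyte markers. CD24, a surface glycoprotein, rose by 2.38 (SE 0.09, limma adjusted p = 2e-06) and PROM1 by 1.53 (limma adjusted p = 9.3e-05), while EPCAM had a difference of -0.04 (limma adjusted p = 0.757) and SOX9 of 0.19 (0.323, and 0.0156 with the block). The summed level of these markers was 746.2 to 872.8 in vehicle and 968.5 to 1069.3 in EZHi, without overlap. It moved in the same direction as the share of KRT19 in the type I level, and its part in that was not tested. CFTR was not analysed here, and AQP1 was under the filter.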

How the data were processed

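RNA from 8 HepG2 libraries (4 vehicle, 4 EZHi) was sequenced as paired reads of 150 bp. Reads were mapped by the authors to hg38 with HISAT2 2.2.1, counted them per gene over exons without regard to strand with HTSeq 0.9.1, and applied the regularized log of DESeq2 1.40.2 with a correction for mean transcript length. These versions are from the submitters' processing notes, and the study's methods, which describe the steps, give others for HISAT2 and DESeq2. The deposited values are therefore on a log2 scale, although named FPKM. Library depth is unknown. Back-transformed values times length summed to 24.4 to 27.3 (mean 25.6, in units of 1e6 normalized reads), which set the estimated FPKM; lengths and coordinates came from GENCODE 44. Of 25604 rows, 1 repeated row was dropped.

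Groups were compared with limma 3.58.1 in R 4.3.3 (lmFit, eBayes with trend, two-sided) over 20153 genes whose estimated FPKM averaged 0.1 or more, with Benjamini-Hochberg adjustment over all of them, and an adjusted p under 0.05 was called. The code was tested on simulated data. Deviations from group means of same-numbered libraries correlated at 0.31, 0.558, 0.634 and 0.216 over genes. Between libraries of other numbers r ran from -0.582 to 0.199, the highest for vehicle library 1 with EZHi library 2. The numbers were therefore taken to pair the samples, although the value of pair 4 lay little above that highest one. The labels do not say what a number marks. The study calls the 4 libraries of a group independent biological replicates, while the labels give only numbers. Alternatives were the replicate block, other filters and scalings, no trend, and leaving out each library. Named with values were the keratins chosen, the other tested keratins and the defining markers. So were up to 5 called genes of each list with the largest change. The 3 genes most like each of KRT7, KRT8, KRT18 and KRT19 were named too. DSP, SFN, LMNA, GRHL1, ELF3, KLF5, SOX4, AFP, KRT10-AS1 and the pseudogenes were added after their values were seen. Some genes that this rule or the lists would name are not reported here. The members and lists were chosen with earlier results of these data known.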

Additional observations from a re-analysis of the deposited data

Results flagged for a closer look

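KRT81, the hair keratin, had 1 library apart from the other 3 in each group. Vehicle library 2 was at a log2 value of 2.23 with the others between 1.77 and 1.80, a gap of 0.946 of the range of that group. EZHi library 3 was at 1.89 with the others at 1.75, a gap of 0.984 of the range. Of 18 groups of 4 examined, 2 stood apart in this way, where chance gives about 0.9 for values that spread normally. The other EZHi libraries of KRT81 were tied at 1.75 on a shrunken scale, so that figure need not apply to KRT81. KRT81 is near the filter on low levels, at an estimated FPKM of 0.147 in vehicle, and was not called with or without these libraries.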

How the results depend on the processing

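The replicate block, in which same-numbered libraries are paired, moved most counts: 4 keratins were called in place of 2, 2 of the keratins chosen in place of 1, 7 desmosome and plakin genes, 3 other filament genes, 7 keratin handling genes, 6 regulators, 5 cholangiocyte markers and 6 hepatocyte markers. Over all genes the block called 15.1% lower and 14.9% higher. It called KRT8 at -0.45 and changed no call of the other keratins chosen. KRT18 (-0.60) was not called with no filter or no trend (limma adjusted p = 0.055 and 0.0501), nor with quantile normalization (-0.53, 0.0729) or centring on genes of at least 10 (-0.50, 0.0577), the last chosen after the data were seen. Of all keratins, 1 was called with no filter, 1 with no trend and 0 with quantile normalization, and 0 of those chosen with any of the 3, while 0 keratin handling genes were called with no filter, quantile normalization or centring. A filter at an estimated FPKM of at least 1 left 2 desmosome genes, 0 other filament genes and 0 regulators called, since low genes were removed, and gave no value for KRT7 or KRT81. Centring called KRT10 at 0.26 (limma adjusted p = 0.0488).

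Blocked fits with another scaling were also added after the data were seen. Their counts take both directions together. The share of all genes that these fits called is not reported here, so no such count can be read as high or low. With quantile normalization KRT8 was at -0.46, KRT19 at 0.25 and KRT80 at -0.59, all called, and KRT7 reversed to -0.20, as it did with quantile normalization alone. Counts were then 6 keratins (4 of those chosen), 8 desmosome genes, 2 filament genes, 4 handling genes, 6 regulators, 6 cholangiocyte and 8 hepatocyte markers. With centring KRT8 was at -0.36, KRT10 at 0.26 and KRT19 at 0.26, all called, with 5 keratins (4 of those chosen), 8 desmosome genes, 3 filament genes, 4 handling genes, 5 regulators, 5 cholangiocyte and 8 hepatocyte markers.

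Leaving out 1 library, or 1 pair in the blocked fit, gave -0.73 to -0.49 for KRT18, -0.60 to -0.34 for KRT8, -0.067 to 0.34 for KRT19, -0.061 to 0.049 for KRT7, -0.15 to 0.001 (libraries) and -0.18 to 0.013 (pairs) for KRT81, -0.76 to -0.052 for KRT80 and 0.12 to 0.20 for KRT10. With 1 pair left out, the blocked fits put KRT8 at -0.42, -0.47, -0.50 and -0.41 without pairs 1 to 4, called each time. Signs turned for KRT7 without vehicle library 1 (-0.010), vehicle library 3 (-0.000342), EZHi library 4 (-0.0613) or pair 4 (-0.0542), for KRT19 without vehicle library 3 (-0.0671) and for KRT81 without vehicle library 2 (0.00111) or pair 2 (0.0133). Counts ran from 1 to 4 for all keratins, 0 to 2 for those chosen, 3 to 7 for desmosome genes, 1 to 3 for filament genes, 0 to 7 for handling genes, 2 to 6 for regulators, 2 to 5 for cholangiocyte and 1 to 6 for hepatocyte markers. These counts also take both directions together and stand without a share over all genes. KRT19 minus KRT18 stayed between 0.63 and 0.83, and the biliary minus hepatocyte pair between 0.56 and 0.67. Where no construction is named, the cause of a change was not tested. The depth is unknown, and levels near the filter are shrunken.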

Other observations

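Of 24 processed or duplicated keratin pseudogenes with a row, 8 passed the filter, and none was called without the block (0 of 8 by limma, with 2 at an unadjusted p under 0.05). Over all genes 4.27% were lower without the block and 15.1% with it. With the block 2 pseudogenes were lower: KRT8P3, a copy of KRT8, with a change of -0.41 (limma adjusted p = 0.159, and 0.0269 with the block), and KRT18P17, a copy of KRT18, with -0.25 (limma adjusted p = 0.061, and 0.0414). KRT8P12, another copy of KRT8, had a change of 0.09. The study counted only reads with an alignment quality of at least 10. Reads that fit a gene and its copy equally well fall under this and count for neither. The summed estimated FPKM of the 24 pseudogenes was 4.37 to 6.22 in vehicle and 4.43 to 6.25 in EZHi.

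The genes whose deposited log2 values followed each keratin most closely over the 8 libraries differed between keratins. For KRT8 they were ESYT1 (r = 0.993), GOLGA1 (0.991) and LRWD1 (0.991), and for KRT18 ATG16L1 (0.988), RIN1 (0.988) and RHOC (0.984). For KRT19 they were GRIN2D (0.993), TP53RK (0.986) and ADM5 (0.985), and for KRT7 they included TEPSIN (0.942) and SPAG5-AS1 (0.936). All points share their scaling and replicate numbers, and the genes were among the highest of 20153.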
